A study of Homo sapiens with 38 samples.

Results

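The 10 genes described here, KLF2, KLF3, KLF4, KLF5, KLF6, KLF9, KLF10, KLF11, KLF13 and KLF16, were chosen by name as relatives of Sp1, out of 20033 protein-coding genes of the GENCODE 44 annotation on the assembled human chromosomes. They are part of the KLF family and were chosen with earlier results of these data known. A peak was given to a gene if it shared at least 1 bp with the gene or with the 5000 bp to either side of any of its transcript starts. Under this rule, 8 of the 10 genes had a peak in at least 1 of 19 peak lists, against 34.2% of all protein-coding genes, and KLF4 and KLF6 had none.

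The lists came from CUT&RUN, in which an antibody leads a nuclease to a protein on chromatin and the DNA cut out beside it is sequenced. All 38 samples were U2OS cells, a human osteosarcoma line, whose endogenous Sp1 carried V5 and Halo tags in every group, controls included. The parental line had no transgene. The derived lines carried, at the AAVS1 safe harbor locus, a doxycycline-inducible construct recognized by anti-FLAG: full-length Sp1 (Sp1 WT), the Sp1 DNA binding domain alone (Sp1 DBD), a mutant Sp1 (Sp1 DBD Mutant), the disordered region of EWS joined to the Sp1 DBD (EWS IDR-Sp1 DBD), the Sp1 disordered region joined to the bacterial repressor LacI or to the CTCF DNA binding domain (Sp1 IDR-LacI, Sp1 IDR-CTCF DBD), LacI or the CTCF DBD alone, or a nuclear SNAP tag (SNAP-NLS). Cells were induced with 1 µg/ml doxycycline for 36 h, sorted, and kept in doxycycline for another 36 h. Labels of all groups, parental included, give induction and sorting. Mouse anti-FLAG was used in 10 lines, rabbit anti-FLAG in the parental line, and rabbit and mouse anti-V5, which see the endogenous Sp1, in the parental, Sp1 WT, Sp1 IDR-LacI and Sp1 IDR-CTCF DBD lines. Each list joins 2 biological replicates, so a condition has 1 list and no test between lists was made: an exact permutation test of 2 against 2 replicates cannot go below p = 0.333.

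Krüppel-like factors share with Sp1 a DNA binding domain of C-terminal zinc fingers, and both families bind GC-rich boxes and the related CACCC boxes. Their other parts differ. KLF9, KLF10, KLF11, KLF13 and KLF16 carry a short segment that recruits the corepressor SIN3A, KLF3 recruits the corepressor CtBP, and KLF2, KLF4, KLF5 and KLF6 act largely as activators. Several of these genes are themselves switched by hormones, growth factors or shear stress.

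Full-length Sp1 had peaks at the most KLF genes of any list. Its mouse anti-FLAG list of 5151 peaks held 8 of the 10 genes (KLF2, KLF3, KLF5, KLF9, KLF10, KLF11, KLF13 and KLF16), against 27.5% of all protein-coding genes. Of the 8 KLF genes outside the 10, it held 2 (KLF1 and KLF7), so the count of 8 of 10 does not describe the whole family. The Sp1 DBD list (3277 peaks) held KLF9, KLF10, KLF11 and KLF13, or 4 of 10 against 18.4%. The EWS IDR-Sp1 DBD list (2535 peaks) held KLF9, KLF10 and KLF11, or 3 of 10 against 13.3%. When every list was reduced to its 1332 highest ranked peaks, the length of the shortest of the 11 lists with more than 1000 peaks, the order was lost: Sp1 WT kept 4 genes (KLF9, KLF10, KLF13 and KLF16) against 8.45% of all genes, Sp1 DBD kept 4 against 8.02%, and EWS IDR-Sp1 DBD kept 2 against 7.40%. The 4 genes that the Sp1 WT list lost at this length (KLF2, KLF3, KLF5 and KLF11) ranked 1947 or lower among its peaks.

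Endogenous Sp1, read out by V5, had peaks at 2 to 4 of these genes in each list. With rabbit anti-V5, 2 genes (KLF13 and KLF16) had a peak in the parental list against 12.1% of all genes, and 2 (the same genes) in the Sp1 WT line against 10.1%. The Sp1 IDR-LacI line had 4 (KLF5, KLF10, KLF11 and KLF16) against 13.0%, and the Sp1 IDR-CTCF DBD line had 4 (KLF10, KLF11, KLF13 and KLF16) against 13.0%. With mouse anti-V5, the parental list held 3 (KLF5, KLF13 and KLF16) against 11.3%, the Sp1 WT line 4 (KLF10, KLF11, KLF13 and KLF16) against 8.07%, the Sp1 IDR-LacI line 3 (KLF11, KLF13 and KLF16) against 10.2%, and the Sp1 IDR-CTCF DBD line 4 (KLF10, KLF11, KLF13 and KLF16) against 8.56%. KLF10 and KLF11 were thus in neither parental V5 list and in several V5 lists of lines with a construct, but each differed between antibodies within the Sp1 WT line. The share of all genes with such a pattern was not counted, and an effect of the constructs was not tested.

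The other 8 lists held 0 of the 10 genes. The CTCF DBD list reached 2.80% of all genes and the Sp1 IDR-CTCF DBD anti-FLAG list 0.824%, so a count of 0 of 10 is near what these lists give for any genes. The remaining lists held almost no gene at all. Among the constructs, Sp1 IDR-LacI reached 0.00499%, LacI 0% and Sp1 DBD Mutant 0%. Among the controls, SNAP-NLS reached 0.00998% and the parental line 0.00499% with mouse and 0% with rabbit anti-FLAG. Leaving out every peak that overlaps a parental or SNAP-NLS mouse anti-FLAG peak changed none of the KLF counts in the 11 longer lists.

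**Figure D1:**
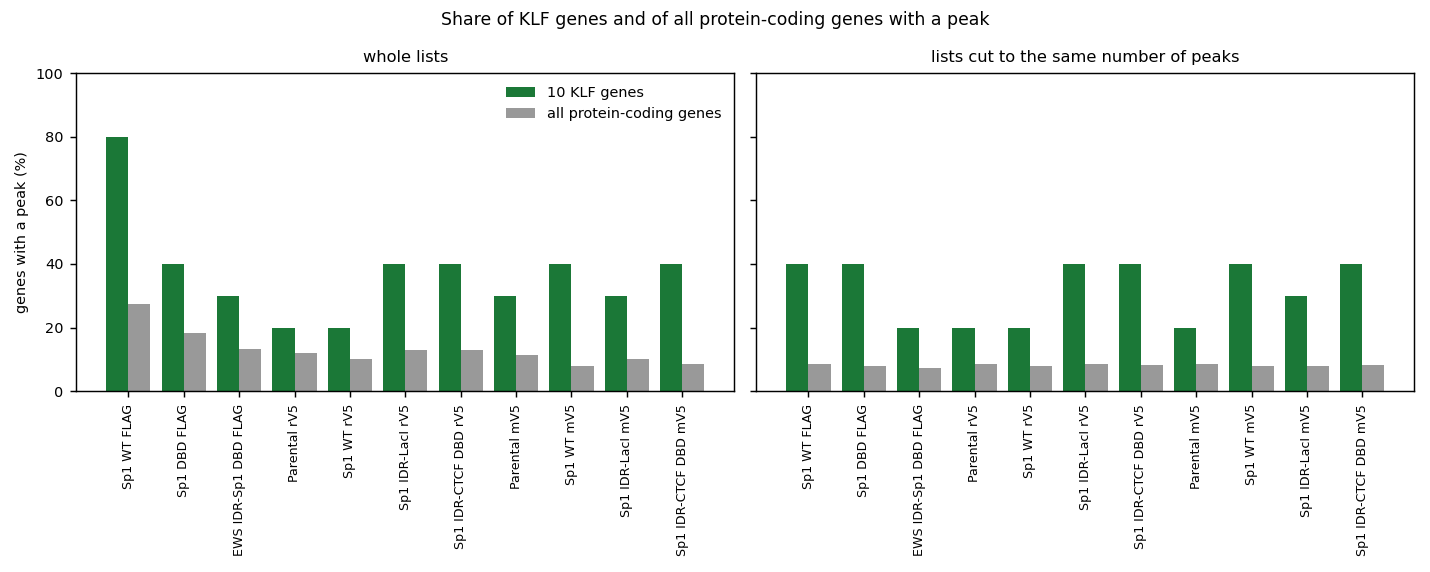
Percent of genes with a peak in each of the 11 lists with more than 1000 peaks, for the 10 KLF genes (green) and all protein-coding genes (grey), with whole lists (left) and lists reduced to the same number of peaks (right); FLAG is mouse anti-FLAG, rV5 and mV5 rabbit and mouse anti-V5. The Sp1 WT bar falls from 8 to 4 of 10 genes at equal length, level with the Sp1 DBD.

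The 10 genes fell into distinct patterns of presence. KLF16 was in all 8 V5 lists, as were 5.12% of all genes. It was also in the Sp1 WT FLAG list, but not in the Sp1 DBD or EWS IDR-Sp1 DBD lists, and 0.619% of all genes held this whole pattern. KLF13 was in 9 lists, KLF11 in 8 and KLF10 in 7. KLF9 had a peak in all 3 of these FLAG lists and in none of the V5 lists, as did 2.83% of all genes. KLF5 was in 3 lists. KLF2 and KLF3 were in the Sp1 WT FLAG list alone, as were 6.33% of all genes, and KLF4 and KLF6 shared their lack of any peak with 65.8%. By role, all 5 genes of the SIN3A-recruiting group and 3 of the other 5 had a peak in the Sp1 WT FLAG list, against 27.5% of all genes. With 5 genes a group, this split carries no test.

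Strength was read as a rank percentile, 100 times the rank of a peak by its p-value over the number of peaks in its list, so that a low value is a strong peak. The percentile of each replicate was taken from its own p-values over the same peaks. Because the authors' merged value is the weaker of the replicate values, the merged percentile can lie outside the replicate percentiles. Over the 41 pairs of a KLF gene and a list, the median percentile was 34.1%, and the SD between the 2 replicates had a median of 8.22 percentage points and reached 24.2.

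KLF10, a TGF-β-induced repressor also known as TIEG1, had the strongest peaks of the family in the FLAG lists. Its peak stood at 5.36% in the Sp1 WT list (replicates 5.44% and 2.35%), 5.92% in the Sp1 DBD list (8.03% and 3.84%) and 3.98% in the EWS IDR-Sp1 DBD list (4.85% and 8.52%). The replicates of the 3 constructs overlapped. In the V5 lists it was weaker, at 43.1% in the Sp1 IDR-LacI rabbit list (43.1% and 31.5%), 37.0% in the Sp1 IDR-CTCF DBD rabbit list (40.1% and 37.9%), 74.0% in the Sp1 WT mouse list (74.0% and 45.0%) and 87.4% in the Sp1 IDR-CTCF DBD mouse list (87.4% and 68.2%). The highest FLAG replicate value was 8.52% and the lowest V5 replicate value 31.5%. Such a gap was general: between the FLAG and mouse V5 lists of the Sp1 WT line, which hold 5151 and 1332 peaks, 89.2% of the 1392 shared genes had replicates that did not overlap, and 1199 genes ranked higher with FLAG.

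The KLF10 peak was among the widest of each list that had it, at 2538 to 3538 bp and within the widest 0.671% to 1.10% of peaks. It covered both annotated starts of the gene. Distances are given from the start of the Ensembl canonical transcript in the direction of transcription, with negative values upstream. In the Sp1 WT and Sp1 DBD FLAG lists the summit lay at -160 and -216 bp, and the replicate summits of each list differed by only 51 and 43 bp. In 3 other lists the replicates disagreed, with summits at -308 and 1821 bp in the EWS IDR-Sp1 DBD list, at 1671 and -205 bp in the Sp1 IDR-CTCF DBD rabbit V5 list, and at 1064 and -136 bp in the Sp1 WT mouse V5 list. The Sp1 IDR-LacI rabbit and Sp1 IDR-CTCF DBD mouse V5 lists had their merged summits at 1670 and 1683 bp. Both fell in an untranslated region of a transcript that starts inside the canonical one. The replicate summits lay at 1466 and 1664 bp and at 1556 and 1423 bp, so each merged summit was outside its replicate summits. A merged summit between distant replicate summits, such as the 757 bp of the EWS list, marks no maximum of either replicate. An unnamed lncRNA gene (ENSG00000283959) starts 356 and 300 bp from the Sp1 WT and Sp1 DBD FLAG summits.

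KLF11, or TIEG2, is the close relative of KLF10 and likewise TGF-β-responsive. Its FLAG peaks were of middle strength, at 37.8% for Sp1 WT (replicates 38.4% and 40.7%), 34.1% for the Sp1 DBD (36.1% and 44.8%) and 36.8% for EWS IDR-Sp1 DBD (21.4% and 54.0%). All 3 overlapped. In V5 the peak stood at 61.2% (61.2% and 63.8%) in the Sp1 IDR-LacI rabbit list, 38.7% (41.8% and 52.3%) in the Sp1 IDR-CTCF DBD rabbit list, 92.7% (92.7% and 85.0%) in the Sp1 WT mouse list, 51.5% (46.1% and 74.1%) in the Sp1 IDR-LacI mouse list and 49.5% (50.5% and 72.4%) in the Sp1 IDR-CTCF DBD mouse list. The Sp1 WT mouse V5 peak was the weakest and, at 527 bp, the narrowest of the 8.

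Summits at KLF11 also fell at more than 1 place. In 5 of the 8 lists, namely the 3 FLAG lists and both V5 lists of the Sp1 IDR-LacI line, the replicate summits were 282 to 718 bp apart. In each of these, 1 replicate had its summit between 269 and 564 bp and the other between -182 and 4 bp. In the other 3 lists, all V5, both replicates had it between 469 and 567 bp and were 11 to 30 bp apart. The merged Sp1 WT and Sp1 DBD summits, at 177 and 148 bp, lay between their replicate summits. That of EWS IDR-Sp1 DBD, at 376 bp, lay outside its replicate summits of 269 and -13 bp. None of these merged summits marks a maximum of either replicate. The sequence around the merged Sp1 WT summit, whose replicate summits lay at 536 and -182 bp, is shown because KLF11 was in nearly as many lists as KLF13 and KLF16 without a fixed summit. In hg38 it is chr2:10043717-10043787 on the plus strand, cut at its 5′ side to leave out untranslated bases, so that it starts in the coding part of the first exon. Capitals mark GC boxes (GGGCGG or its reverse complement), here and in all sequences shown, and this window of 71 bases holds 0.
KLF11: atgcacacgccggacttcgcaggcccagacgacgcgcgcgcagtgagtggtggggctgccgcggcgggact

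KLF13 encodes a SIN3A-recruiting factor known for its part in T-cell chemokine expression. Its promoter peak stood at 11.6% in the Sp1 WT FLAG list (replicates 11.8% and 2.54%) and 22.2% in the Sp1 DBD list (9.98% and 30.3%). With rabbit anti-V5 it stood at 22.8% in the parental line (23.0% and 28.7%), 36.1% in the Sp1 WT line (38.2% and 23.0%) and 15.6% in the Sp1 IDR-CTCF DBD line (16.9% and 14.9%). With mouse anti-V5 it stood at 45.1% in the parental line (45.1% and 21.6%), 48.7% in the Sp1 WT line (48.7% and 34.6%), 22.0% in the Sp1 IDR-LacI line (22.8% and 19.5%) and 27.3% in the Sp1 IDR-CTCF DBD line (28.2% and 24.3%). It was absent from the Sp1 IDR-LacI list of the rabbit antibody and present in that of the mouse antibody.

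The KLF13 summit kept to 1 place while the extent of the peak did not. Over 9 lists the summit lay between -342 and -174 bp, and replicate summits were 8 to 104 bp apart. The peak was 3754 and 3926 bp wide in the Sp1 WT and Sp1 DBD FLAG lists, where it ran 2715 and 2668 bp into the gene and was within the widest 0.602% and 0.793% of peaks, and 724 to 1130 bp wide in the 7 V5 lists. The FLAG lists also each had a second peak far inside the gene, in an intron of a transcript longer than the canonical one, but not at the same site: at 70506 bp for Sp1 WT (58.6%, replicates 58.6% and 62.9%) and at 65603 bp for the Sp1 DBD (68.8%, replicates 78.4% and 60.2%). Measured from the nearest annotated start of KLF13, the Sp1 WT summit lay at 3766 bp and the Sp1 DBD summit at -405 bp, just upstream of an alternative start. The promoter window shown is chr15:31326530-31326650, plus strand, centred on the Sp1 WT summit, and KLF13 is shown as a gene with peaks in 9 lists. It holds 0 GC boxes, although the whole peak holds 29.
KLF13: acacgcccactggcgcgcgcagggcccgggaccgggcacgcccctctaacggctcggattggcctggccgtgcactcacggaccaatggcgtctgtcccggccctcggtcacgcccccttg

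KLF16, a short SIN3A-recruiting factor linked to metabolic genes, was the member with a peak in every V5 list. Its peak stood at 23.7% in the Sp1 WT FLAG list (replicates 24.2% and 9.59%). With rabbit anti-V5 it stood at 50.4% in the parental line (50.7% and 18.5%), 31.6% in the Sp1 WT line (33.3% and 51.5%), 31.5% in the Sp1 IDR-LacI line (31.6% and 22.4%) and 22.1% in the Sp1 IDR-CTCF DBD line (23.6% and 20.3%). With mouse anti-V5 it stood at 27.4% (27.5% and 9.78%), 31.4% (31.4% and 11.6%), 18.7% (19.6% and 20.4%) and 21.9% (22.5% and 19.5%) in the same order of lines. The parental and Sp1 WT lines had the wider replicate spread, and every V5 value, replicates included, was 51.5% or lower.

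All 9 summits at KLF16 lay between -425 and -331 bp, within 94 bp of each other, and the replicate summits of a list were 1 to 43 bp apart. The FLAG peak of 1419 bp reached past the start to 106 bp, while the V5 peaks, of 628 to 1330 bp, ended upstream of it. The window chr19:1863937-1864057, shown on the minus strand of the gene as the site shared by the most lists together with KLF13, holds 3 GC boxes and 1 CACCC box.
KLF16: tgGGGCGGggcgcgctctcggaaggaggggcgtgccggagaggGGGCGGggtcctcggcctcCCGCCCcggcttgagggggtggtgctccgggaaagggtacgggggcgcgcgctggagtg

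**Figure D2:**
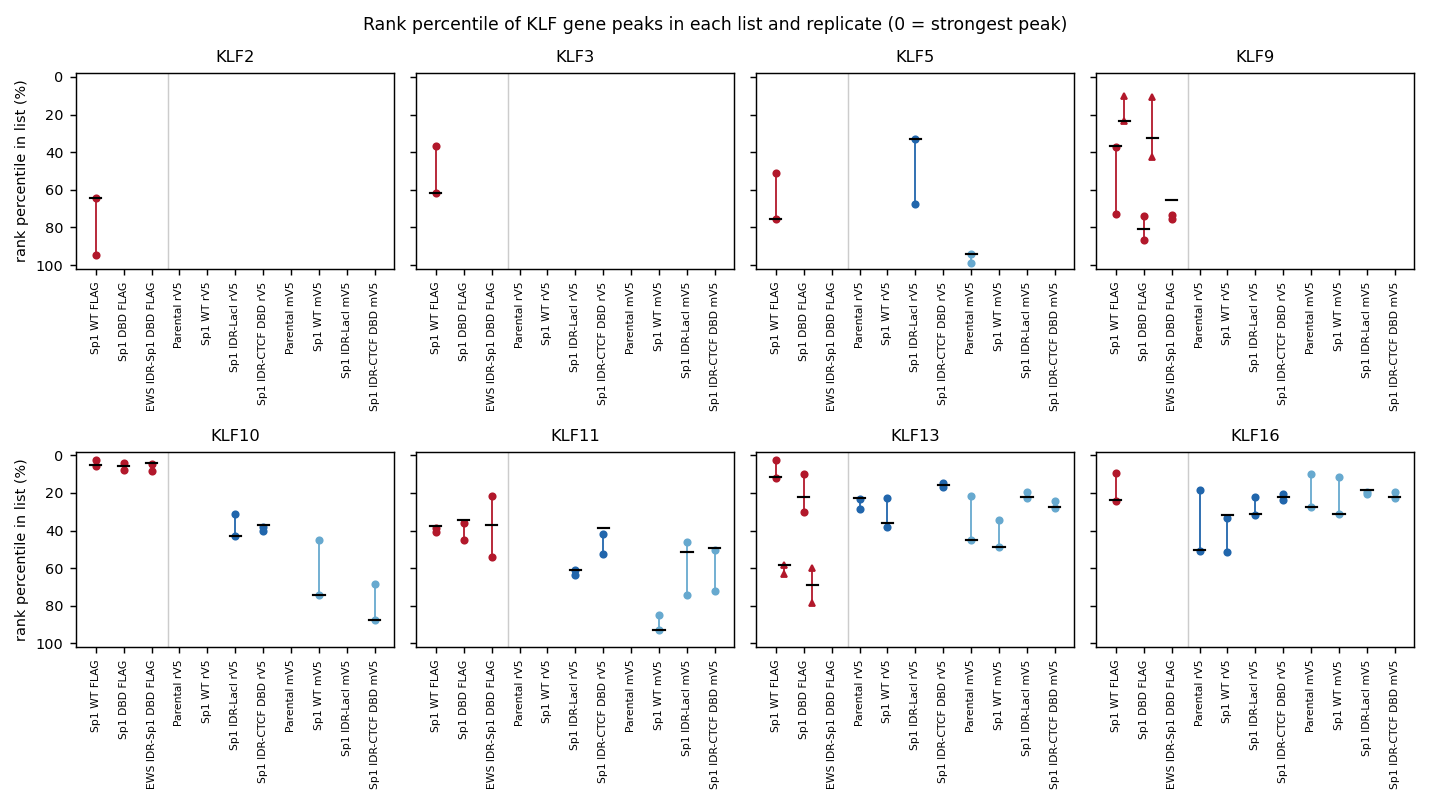
Rank percentile in each list (low is strong, axis inverted) for the 8 KLF genes with a peak; red is mouse anti-FLAG, dark blue rabbit and light blue mouse anti-V5, coloured points are the 2 replicates, the black bar is the merged value, and triangles are a second site of the gene. KLF10 sits under 10% in all 3 FLAG lists, KLF9 has FLAG peaks alone, and KLF16 is in all 8 V5 lists.

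**Figure D3:**
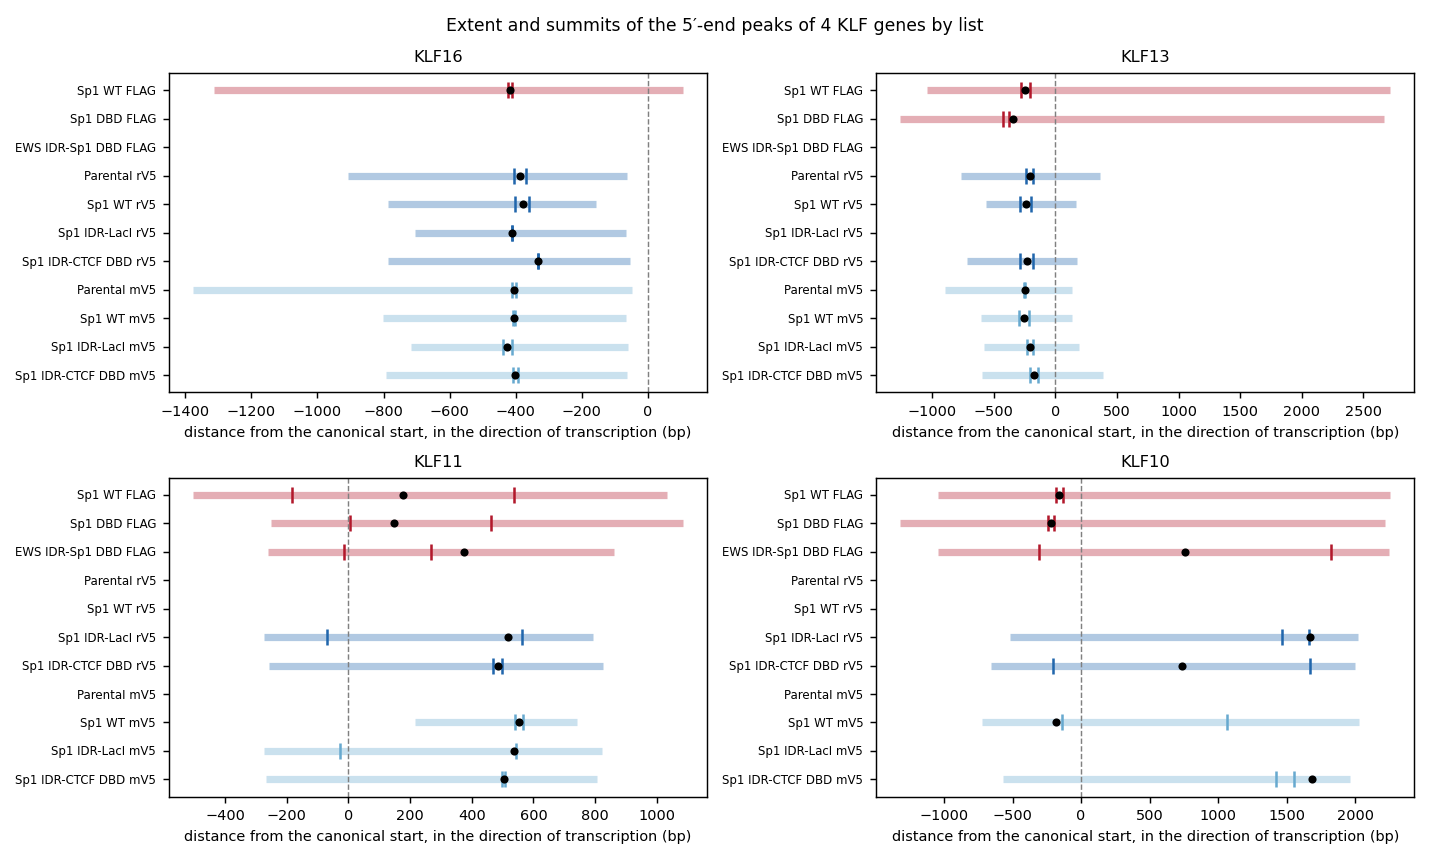
Peaks at the 5′ ends of KLF16, KLF13, KLF11 and KLF10 by list, in bp from the canonical start (dashed line, transcription to the right): pale bars are the merged peak, ticks the replicate summits and black dots the merged summit. KLF16 and KLF13 merged summits stack within 94 and 168 bp, whereas those of KLF11 and KLF10 spread over 405 and 1899 bp.

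KLF9, a glucocorticoid- and thyroid hormone-induced repressor, was bound at 2 sites by the FLAG-tagged constructs. At its 5′ end the summit lay in the untranslated region, at 763, 743 and 814 bp in the Sp1 WT, Sp1 DBD and EWS IDR-Sp1 DBD lists. That peak stood at 36.7% (replicates 37.3% and 73.1%), 80.7% (73.9% and 86.6%) and 65.2% (73.4% and 75.5%). A stronger and wider peak of 3185 and 3087 bp lay upstream in the Sp1 WT and Sp1 DBD lists, at 23.2% (23.6% and 10.2%) and 32.2% (10.6% and 42.8%), and was absent from the EWS IDR-Sp1 DBD list. Its summits lay at -4180 and -5762 bp, and its replicate summits were 872 and 815 bp apart, so it has no fixed maximum. Another lncRNA gene, ENSG00000289159, starts 496 bp from 1 of these summits, and the lists alone do not tell which gene the site serves.

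The percentile of KLF9 depended on which site was used. With the stronger site, the Sp1 WT and Sp1 DBD replicates overlapped and both stood above those of EWS IDR-Sp1 DBD. With the site nearest to the start, the Sp1 WT replicates (37.3% and 73.1%) stood just above those of the Sp1 DBD (73.9% and 86.6%). They also stood just above those of EWS IDR-Sp1 DBD (73.4% and 75.5%). The replicates of the Sp1 DBD and EWS IDR-Sp1 DBD overlapped. KLF9 was also the member with the fewest GC boxes: 0 lay within 1000 bp of its start, where 81.8% of all protein-coding genes have at least 1. The window around the merged Sp1 WT summit of the upstream site is chr9:70418777-70418897 on the minus strand. This window was chosen after its values were seen, as that of the stronger KLF9 site. It holds 0 GC boxes and 1 CACCC box, but 2 GC boxes lie within 100 bp of the merged summit and 14 in the whole peak, and the replicate summits, at -4616 and -3744 bp, fall outside the window.
KLF9 upstream site: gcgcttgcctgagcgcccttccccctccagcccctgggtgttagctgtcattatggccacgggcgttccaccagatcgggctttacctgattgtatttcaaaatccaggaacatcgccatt

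KLF3, the CtBP-recruiting repressor, and KLF2, an activator of endothelial and T-cell quiescence, each had 1 peak, both in the Sp1 WT FLAG list. KLF3 stood at 61.5% (replicates 61.5% and 36.5%) with its summit at -164 bp, and 188 bp from the start of the antisense gene KLF3-AS1. KLF2 stood at 64.2% (64.2% and 94.8%) with its summit at -82 bp, and 230 bp from the start of the divergent transcript KLF2-DT. The KLF2 peak had an irreproducible discovery rate of 0.0913, close to the authors' limit of 0.1, and was lost at 0.05. KLF3, at 0.00879, was kept at 0.01. Both dropped out when the lists were cut to equal length. Their windows, chr4:38663975-38664095 and chr19:16324684-16324804, both on the plus strand, are shown as those of the genes with peaks in the fewest lists. KLF3 holds 3 GC boxes and 4 CACCC boxes in its window and KLF2 holds 0 of each. This difference belongs to the window of 121 bases, since KLF2 has 3 GC boxes within 100 bp of the summit and 14 in the whole peak, and KLF3 has 6 and 18.
KLF3: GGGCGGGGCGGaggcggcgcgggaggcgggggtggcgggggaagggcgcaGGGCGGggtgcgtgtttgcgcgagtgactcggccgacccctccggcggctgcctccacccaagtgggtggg
KLF2: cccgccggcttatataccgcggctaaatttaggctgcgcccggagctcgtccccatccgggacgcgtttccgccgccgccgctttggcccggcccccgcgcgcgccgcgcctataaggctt

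KLF5, an activator of epithelial proliferation, had a narrow peak of 372 to 704 bp at its canonical start in 3 lists. It stood at 75.6% in the Sp1 WT FLAG list (replicates 75.6% and 50.9%), 33.1% in the Sp1 IDR-LacI rabbit V5 list (33.2% and 67.5%) and 94.3% in the parental mouse V5 list (94.3% and 99.0%). The summits lay at -123, -167 and -103 bp, within 64 bp of each other. The parental peak had an irreproducible discovery rate of 0.0752 and was lost at 0.05, and the peak was absent from the mouse V5 list of the Sp1 IDR-LacI line.

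KLF4, a pluripotency factor, and KLF6, a broadly expressed growth inhibitor, had no peak in any of the 19 lists. Within 1000 bp of the canonical start KLF4 has 15 GC boxes and KLF6 has 10, against a median of 4 over all protein-coding genes. KLF13, with peaks in 9 lists, also has 15 GC boxes there. Among all genes, 3.82% have at least as many as KLF4 and 13.8% at least as many as KLF6. Their RefSeq promoters (250 bases before to 50 after the start) are shown as those of the members without a peak, chosen after the values were seen and cut to the bases outside untranslated regions: chr9:107489770-107490019 and chr10:3785282-3785459, both on the minus strand. They hold 4 and 1 GC boxes.
KLF4: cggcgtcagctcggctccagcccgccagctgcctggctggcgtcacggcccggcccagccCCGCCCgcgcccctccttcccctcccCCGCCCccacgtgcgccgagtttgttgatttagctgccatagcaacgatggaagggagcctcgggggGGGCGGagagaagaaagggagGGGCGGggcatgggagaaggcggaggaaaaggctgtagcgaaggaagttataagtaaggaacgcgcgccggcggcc
KLF6: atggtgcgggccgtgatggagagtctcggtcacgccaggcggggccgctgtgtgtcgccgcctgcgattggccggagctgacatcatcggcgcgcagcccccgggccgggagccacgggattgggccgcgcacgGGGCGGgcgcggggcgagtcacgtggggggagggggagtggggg

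GC boxes were common at the KLF genes, and also at other peaks of the same lists. The motifs searched were GGGCGG, its longer form GGGGCGGGG, which contains it, and CACCC, which does not, all on both strands. Within 1000 bp of the start, KLF11 has 32 GC boxes, a number reached or passed by 0.0399% of genes, KLF16 24, KLF3 22, KLF2 17, and KLF5 and KLF10 10 each. Of the 10 RefSeq promoters that matched 8 members, 8 hold a GC box, against 45.0% of 35116 promoters of 300 bases, and the KLF9 promoter and 1 of the KLF5 promoters hold none. RefSeq promoters of KLF3 and KLF10 were not matched. The order of the genes by GC boxes was not the order by lists: KLF3, with 22, was in 1 list, and KLF10, with 10, was in 7.

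Within 100 bp of the summit, a GC box lay at 9 of 10 KLF peaks in the Sp1 WT FLAG list, against 70.2% of all its peaks, at 5 of 6 in the Sp1 DBD list against 75.2%, and at 1 of 3 in the EWS IDR-Sp1 DBD list against 72.7%. In the V5 lists it lay at 25 of 26 KLF peaks, against 74.2% to 84.4% of all peaks. These counts use the merged summits, some of which mark no maximum of either replicate. The KLF10 peaks of the EWS IDR-Sp1 DBD and the Sp1 IDR-CTCF DBD rabbit V5 lists had no box there. Their merged summits lay between distant replicate summits, and the whole peaks hold 23 and 21 GC boxes. The CTCF DBD list, with no KLF peak, had a GC box at 31.0% of its peaks. The V5 peaks repeat few sites, since all 45 KLF peaks lie at 11 sites, so these counts are not independent. At the narrower 50 bp the Sp1 WT count was 3 of 10 against 45.3%. A CACCC box lay at 6 of 10, 4 of 6 and 1 of 3 KLF peaks in the 3 FLAG lists, against 56.7%, 55.8% and 59.7%, and at 19 of 26 in V5, against 49.7% to 54.3%. The KLF9 5′ peak had 0 GC boxes and 3 CACCC boxes within 100 bp of its summit in each of the 3 lists.

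**Figure D4:**
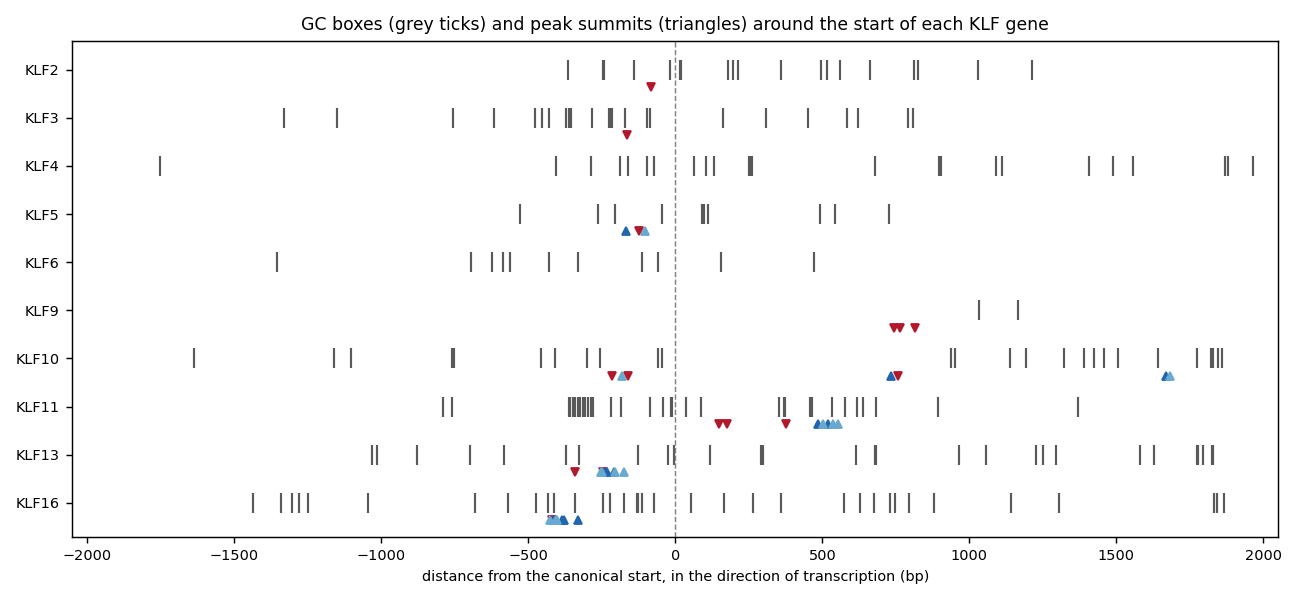
GC boxes (grey ticks, either strand) and peak summits within 2000 bp of the canonical start of each KLF gene, in bp in the direction of transcription; red triangles are mouse anti-FLAG lists, dark and light blue rabbit and mouse anti-V5. KLF4 and KLF6 have 15 and 10 boxes within 1000 bp and no summit, and KLF9 has summits and 0 boxes within 1000 bp.

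Replicate percentiles were set side by side between lists for every KLF gene present in both, which gave 31 comparisons over 13 pairs of lists. In 24 the replicates overlapped and in 7 they did not. Pairs share lists, the parental list above all, and are not independent of each other. Between constructs, 0 of 4 genes separated Sp1 WT from the Sp1 DBD, where 61.4% of all shared genes did. For EWS IDR-Sp1 DBD, 1 of 3 genes separated it from Sp1 WT (background 63.9%) and 1 of 3 from the Sp1 DBD (46.5%). In both cases this was KLF9, compared at different sites. At the 5′ site alone, KLF9 still separated EWS IDR-Sp1 DBD from Sp1 WT, by a small margin, but not from the Sp1 DBD. Ranked among shared genes alone, KLF11 ranked higher in the Sp1 DBD and in the EWS IDR-Sp1 DBD list than in the Sp1 WT list. Here and below, the share of all shared genes that separate under this ranking was not counted.

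Against the parental line with rabbit anti-V5, 0 of 2 genes separated the Sp1 WT line (44.6%), 0 of 1 the Sp1 IDR-LacI line (40.2%) and 1 of 2 the Sp1 IDR-CTCF DBD line (39.5%), where KLF13 ranked higher than in the parental line. With mouse anti-V5, 0 of 2 separated the Sp1 WT line (64.5%), 0 of 2 the Sp1 IDR-LacI line (41.9%) and 0 of 2 the Sp1 IDR-CTCF DBD line (56.5%). With the mouse antibody the call for KLF13 turned on how it was ranked: among shared genes alone, it ranked higher than in the parental line in both the Sp1 IDR-LacI and the Sp1 IDR-CTCF DBD lines.

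Between the V5 antibodies in the same line, 0 of 2 genes separated in the parental line (46.3%). In the Sp1 WT line 1 of 2 did (52.9%), KLF16 ranking higher with the mouse antibody, and in the Sp1 IDR-LacI line 1 of 2 (59.0%), again KLF16 with the mouse antibody. In the Sp1 IDR-CTCF DBD line 2 of 4 did (63.3%), KLF10 and KLF13 ranking higher with the rabbit antibody. Ranked among shared genes alone, KLF13 no longer separated there and KLF16 did, higher with the mouse antibody. In the Sp1 WT line, tagged construct and endogenous protein could also be set side by side, a comparison added after the values were seen. KLF13 and KLF16, 2 of 2, ranked higher with FLAG than with rabbit V5 (background 79.9%), and KLF10, KLF11 and KLF13, 3 of 4, higher than with mouse V5 (89.2%). The FLAG list is the longer in both, and shared genes moved the same way in general. With at most 4 KLF genes in a pair, their share cannot be told apart from that of all genes.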

How the data were processed

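By the methods of the study and the submitters' processing notes, reads were trimmed (cutadapt 2.6) and mapped to hg38 (Bowtie2 2.3.5.1), and duplicates were dropped (SAMtools 1.9). Peaks were called by MACS3, for which the notes give 2.2.7.1, with merged controls and a p-value cutoff of 0.001, and those whose irreproducible discovery rate over 2 replicates was at most 0.1 were retained. The authors deposited, per peak, the −log10 p-value of the merged peak, which equals the smaller replicate value, those of both replicates, and a score for the discovery rate. Which labelled replicate is which was not given in the sources used here. Deposited tables of the authors' own differential regions between constructs were not used. Read depth is unknown from these files, so no limit from depth is given and a missing peak is not evidence of no binding.

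Transcript starts came from GENCODE 44, and overlaps (at least 1 bp) matched bedtools 2.31.1 in all 19 lists. On simulated data, 100% of 500 peaks placed at gene starts were recovered and 0% of those between genes were assigned. Motifs were read from hg38 with pysam 0.24.0, and promoter sequences are RefSeq's (GRCh38). Tables were made with pandas 2.3.3, NumPy 2.4.6 and Python 3.11.15, and plots with matplotlib 3.10.9. No test was run, since each condition has 1 list and genes are not replicates. The text names all 10 members, genes starting within 1000 bp of a summit, counts of comparison lists, the genes closest to KLF13 (tied with KLF16 at 9 lists and taken for its lower mean percentile), and up to 5 summit sequences, with exceptions marked where they stand. The members and lists were chosen with earlier results of these data known.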

Additional observations from a re-analysis of the deposited data

How the results depend on the processing

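The number of pairs of a KLF gene and a list stayed within 1.5 times of 41 under all 8 settings tried. With lists of equal length the Sp1 WT FLAG count fell to 4 genes, without KLF2, KLF3, KLF5 and KLF11, and at a discovery rate of 0.01 the EWS IDR-Sp1 DBD count fell to 1, KLF10. The other settings kept each list's count within 1.5 times. The median percentile was 31.5% and 33.3% with each replicate alone, 36.7% within 1000 bp of a start and 39.6% at a rate of 0.05. Of the 41 single percentiles, 34 moved by more than the SD of their replicates with the replicate column of median 31.5% alone. With the other column alone, 3 did. These counts do not measure stability, because the merged value is the weaker of the replicate values and so mostly follows 1 column. Ranking among shared genes raised the comparisons whose replicates did not overlap from 7 to 11: KLF11 then separated from Sp1 WT in the Sp1 DBD and EWS IDR-Sp1 DBD lists, ranking higher in those, KLF13 ranked higher than in the parental mouse V5 list in the Sp1 IDR-LacI and Sp1 IDR-CTCF DBD lines, KLF16 separated the antibodies in the Sp1 IDR-CTCF DBD line, and KLF13 no longer did. The share of all shared genes whose replicates did not overlap under this ranking was not counted, and the cause was not tested. GC box counts depended on the window. Of the 45 KLF peaks, 40 had a box within 100 bp, 24 within 50 bp, and 26 had the longer form within 100 bp. For Sp1 WT, 3 of 10 had a box within 50 bp against 45.3% of all its peaks, and 4 the longer form against 27.2%. For the Sp1 DBD these were 3 of 6 against 49.3%, and 1 against 30.4%. For EWS IDR-Sp1 DBD they were 1 of 3 against 49.2%, and 1 against 30.3%. In V5 they were 17 of 26 against 55.3% to 66.6%, and 20 against 36.5% to 45.6%. Over the whole peak the EWS IDR-Sp1 DBD count was 3 against 92.4%. No paired analysis was possible because each list joins its 2 replicates without saying which is which, and no result comes from a test.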

Other observations

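The relatives of these genes within the SP family had peaks of their own. The SP1 gene had a peak in all 8 V5 lists and in the Sp1 DBD and EWS IDR-Sp1 DBD FLAG lists, at 0.513% to 13.5%, and none in the Sp1 WT FLAG list. SP2 and SP4 were in 10 lists each, SP3 in 2 and SP6 in 1, and SP5, SP7, SP8 and SP9 in none. Of the 8 other KLF genes, KLF1 was in 8 lists, KLF7 in 7, including the CTCF DBD list (91.8%), and KLF12 in the Sp1 DBD and EWS IDR-Sp1 DBD lists but not in the Sp1 WT list. KLF8, KLF14, KLF15, KLF17 and KLF18 were in none.

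Among 11 genes for cofactors and regulators of KLF proteins, SIN3A, the corepressor that KLF9, KLF10, KLF11, KLF13 and KLF16 recruit, had among the strongest peaks, at 0.175% to 5.40% in 5 lists (3 FLAG and 2 rabbit V5). EP300, an acetyltransferase, and WWP1, a ubiquitin ligase, were each in 8 lists, FBXW7 in 4, KAT2B in 2, and SIN3B and CTBP2 in 1 each. CTBP1, HDAC1, HDAC2 and CREBBP had no peak.

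KLF13 and KLF16 were each in 9 lists, and look-alike genes were sought for KLF13, whose mean percentile was the lower (27.9% against 28.7%). Exactly its 9 lists were shared by 7 other genes. The closest by mean absolute difference of percentile over the 9 lists were HSPB6 and PROSER3, which gave the same values (25.8 percentage points), and BRI3 (32.1).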
